A study of Mus musculus with 25 samples.

Results

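The 9 genes described here are the Janus kinase (JAK) genes Jak1, Jak2, Jak3 and Tyk2 and the signal transducer (STAT) genes Stat2, Stat3, Stat5a, Stat5b and Stat6. They were taken by symbol from the 13641 mouse genes of the deposited count table, and all 9 had enough reads to be tested. The table also carries 2 rows for the human JAK2 V617F construct, one for exons 3 to 12 and one for exons 13 to 25, against which mouse Jak2 was set.

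RNA came from long-term hematopoietic stem cells (HSCs, sorted as Lin-Sca1+cKit+CD48-CD150+) of mice engrafted with donor marrow, and tamoxifen was given to recipients after engraftment to switch on the JAK2 construct. WT libraries are labelled SclCre;GFP, VF libraries SclCre;V617F;GFP, Il1bKO libraries carry V617F and lack IL-1β (IL-1b-/-), and Il1r1KO libraries carry V617F and lack the IL-1 receptor (IL-1R1-/-). By label all 4 genotypes carry SclCre and GFP, which the counts of some libraries labelled WT go against, as given with the library checks. There were 4 libraries of each genotype at 2 weeks after tamoxifen and 3 each of VF, Il1bKO and Il1r1KO at 4 weeks, with no WT at 4 weeks. SclCre is a tamoxifen-dependent Cre driven from the stem cell gene Scl. The recipients can keep cells of their own, whose mouse gene reads these counts do not tell from those of donor cells.

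JAKs are tyrosine kinases bound to the inner side of cytokine receptors. When a cytokine brings receptor chains together the kinases phosphorylate each other and the receptor, and STAT proteins that dock there are phosphorylated, pair and move to the nucleus as transcription factors. In blood stem and progenitor cells the receptors for thrombopoietin, erythropoietin and G-CSF signal through JAK2 and chiefly STAT5 and STAT3. V617F is a change in the pseudokinase domain of human JAK2 that keeps the kinase active and drives myeloproliferative neoplasms. STAT proteins are switched on by phosphorylation, so transcript levels say nothing of how active they were.

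The sequences here mark the mouse site that matches V617F and a stretch that Stat5a and Stat5b share. The first is the mouse codon at the position of V617F, from transcript Jak2-202 (mm10, chr19:29294898-29295658, plus strand). The printed stretch of 63 bases spans the junction of exons 14 and 15. Capitals mark the codon, which lies within exon 14 and encodes valine in the mouse gene. The construct rows hold human sequence and are counted apart from this gene.
Jak2: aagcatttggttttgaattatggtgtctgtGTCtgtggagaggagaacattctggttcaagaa

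Stat5a and Stat5b are neighbours on chromosome 11, 8626 bases apart, and their coding sequences are identical at 90.79% of 2291 aligned bases. The next pair shows where their longest identical run begins, in exon 6 of each (Stat5a-203, chr11:100874008-100874082, plus strand; Stat5b-202, chr11:100798642-100798716, minus strand). Capitals mark the first bases of that run, which goes on for 324 bases through exon 8.
Stat5a: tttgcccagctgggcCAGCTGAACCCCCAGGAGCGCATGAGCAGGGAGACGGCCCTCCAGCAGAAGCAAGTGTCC
Stat5b: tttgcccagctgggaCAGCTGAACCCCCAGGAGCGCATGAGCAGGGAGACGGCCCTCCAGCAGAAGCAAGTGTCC

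Of all stretches of 50 bases in these transcripts, 17.1% of Stat5a and 11.8% of Stat5b also occur in the other gene, and at 100 bases the shares were 7.56% and 5.18%. A read that lies wholly in such a stretch cannot be assigned to either gene, and how the authors' counting treated it is not given in the sources used here. Counts were unstranded, so reads from opposite strands cannot be told apart in the overlap of Stat3 with Stat5a (72 bases), of Stat6 with Nab2 (40 bases), of Tyk2 with 1700084C06Rik (554 bases) and of Jak1 with Raver2 (4 bases). Jak3 shares 404 bases with Insl3 on the same strand. Jak2, Stat2 and Stat5b overlap no other annotated exon.

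Library totals ran from 21990959 to 40178173 counts, and 3 libraries of 4 weeks stand apart in these data: VF replicate 6, Il1bKO replicate 5 and Il1r1KO replicate 5 (replicates 1 to 4 are of 2 weeks and 5 to 7 of 4 weeks). Il1bKO replicate 5 had reads in 11871 genes, against 13039 or more in every other library, and the other 2 had the lowest scaling factors, 0.921 and 0.951 against 0.990 or more. The HSC markers Kit, Ly6a, Slamf1, Procr, Mecom, Hlf and Mllt3 were all present, with a summed level of 1900 to 3100 counts scaled to library size (CPM) at 2 weeks and 1210 to 1930 at 4 weeks. Cd48, which the sort gates against, was at 0.608 to 5.63 CPM at 2 weeks and 3.99 to 17 at 4 weeks. CreERT2 had 1 read in all over the 4 libraries labelled WT, although their label carries SclCre. The GFP row, pEGFP, was at 1027 and 519 CPM in WT replicates 1 and 2 but at 3.04 and 48.8 CPM in replicates 3 and 4, against 382 CPM or more in every mutant library. The libraries labelled WT therefore match their label for the absent JAK2 construct, none of the 4 does so for the Cre, and 2 of them stand far below the others for GFP. Fewer cells of a type and less RNA per cell cannot be told apart in these bulk libraries.

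Jak1, which serves the interferon, IL-6 family and γc cytokine receptors, was the most abundant of the 9 per length of transcript. Its mean over the 25 libraries was 62.0 RPKM (reads per kilobase of exon scaled to library size, SD 12.4), above Stat3 in 25 of 25 libraries. A middle band followed in which neighbours did not separate: Stat3 33.0 (SD 5.38), Stat5b 31.8 (SD 3.63), Stat6 31.2 (SD 5.02), Stat5a 29.7 (SD 3.52) and Jak3 28.6 (SD 7.38) RPKM. Each gene of that band was above the next in only 13 to 15 of 25 libraries. Mouse Jak2 was at 20.3 RPKM (SD 4.26), below Jak3 in 21 of 25 libraries. Stat2 at 10.6 (SD 3.67) and Tyk2 at 8.39 (SD 2.49) RPKM were lowest, with Stat2 above Tyk2 in 18 of 25.

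**Figure D1:**
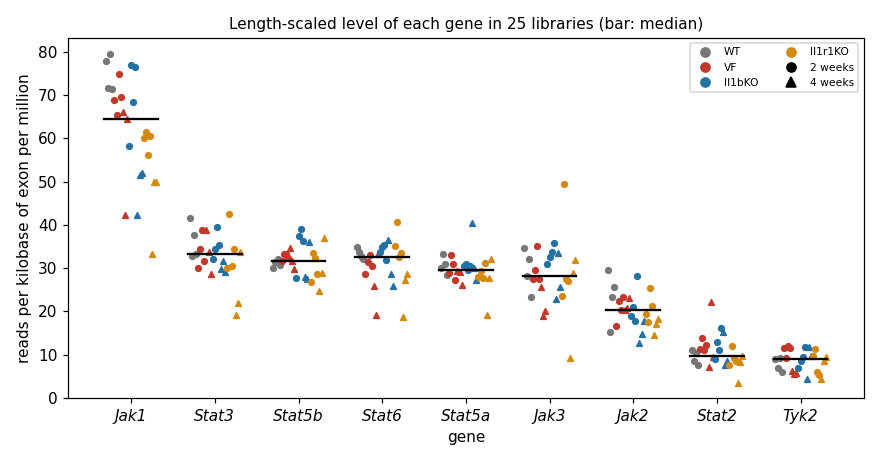
RPKM of each gene (y axis), 1 point per library coloured by genotype, with circles for 2 weeks and triangles for 4 weeks and a bar at the median of the 25 libraries. The Jak1 median lies above those of the other 8 genes, though its lowest points fall within the range of points of other genes. A band with means of 28.6 to 33.0 holds 5 genes, and Stat2 and Tyk2 have the lowest medians.

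How much each gene varied between libraries of the same group differed across the 9. Within-group SD of log2 CPM was lowest for Stat5b (0.16), Stat5a (0.17), Jak1 (0.18) and Stat6 (0.19), and 81.1% to 90.0% of tested genes varied more than these. Stat3 (0.20) and Jak2 (0.26) were intermediate. Jak3 (0.40), Tyk2 (0.42) and Stat2 (0.48) lay above the median of all tested genes, 0.31. Il1r1KO replicate 5 at 4 weeks was the lowest of the 25 libraries for 8 of the 9 genes, all but Jak2, and it also had the lowest HSC marker sum, 1206 CPM.

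**Figure D2:**
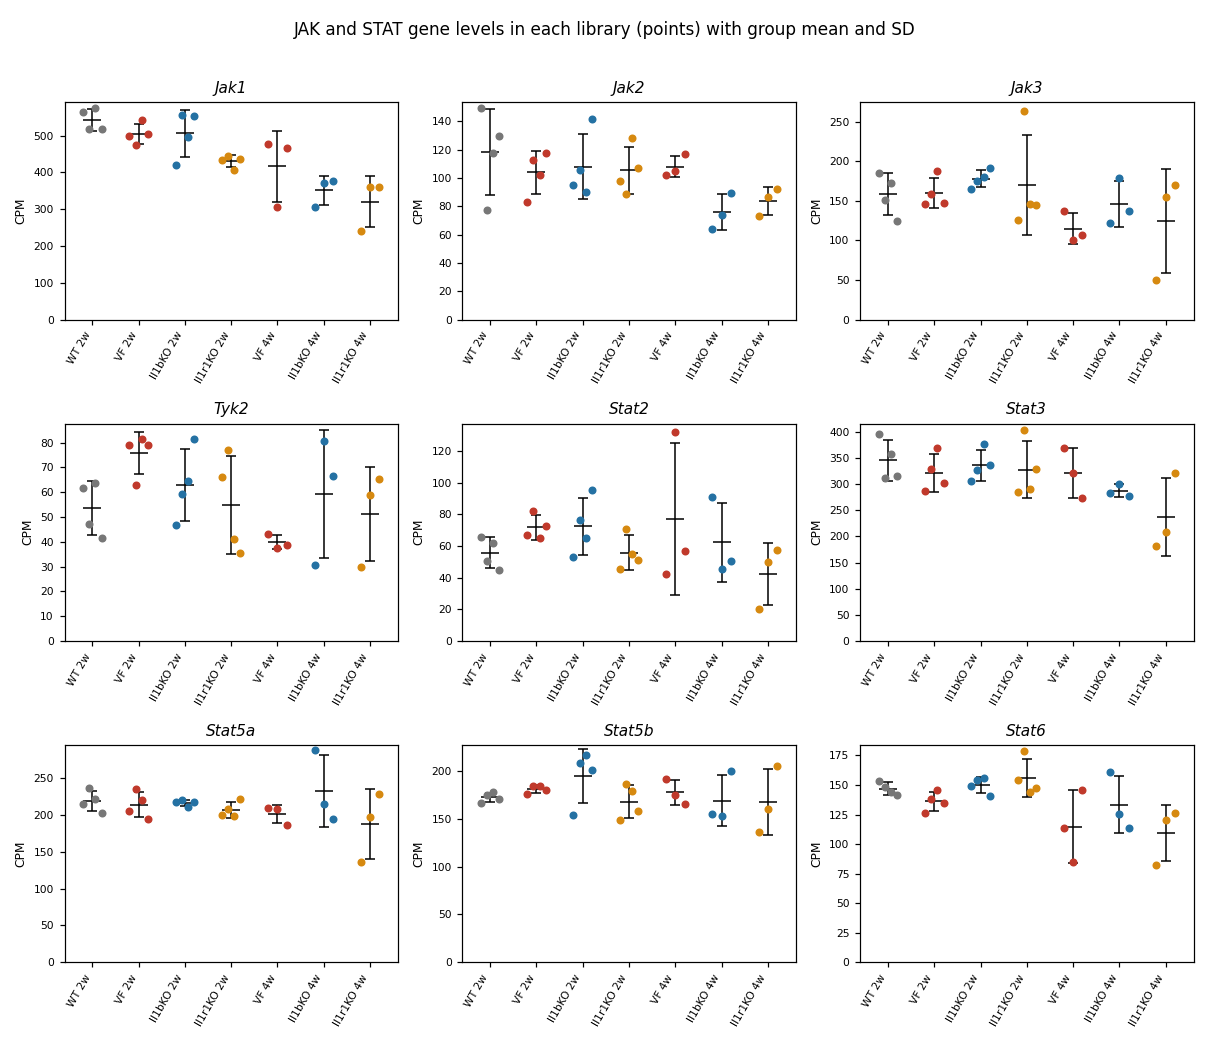
CPM of each gene (y axis, linear from 0) in each library, with 1 panel per gene, points for libraries and bars for group mean and SD, n = 4 at 2 weeks and 3 at 4 weeks. Jak1 is lower in mean in the mutant groups at 4 weeks than at 2 weeks, Stat2 has 1 VF library at 131.7, and groups overlap in most panels.

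Expression of mouse Jak2, the erythropoietin and thrombopoietin receptor kinase (ENSMUSG00000024789, chr19:29251828-29313080), was read first because the construct carries its human counterpart. At 2 weeks the WT libraries gave 149, 77.2, 118 and 129 CPM and the VF libraries 83.2, 113, 102 and 118 CPM. Those groups overlapped, and the fitted log2 difference was -0.19 (SE 0.17, adjusted p = 1, edgeR quasi-likelihood). Il1bKO at 2 weeks gave 95.4, 105, 89.9 and 142 CPM, and Il1r1KO 98.0, 88.7, 128 and 107 CPM, again overlapping VF.

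At 4 weeks Jak2 was 102, 105 and 117 CPM in VF. It was 64.3, 73.8 and 89.4 CPM in Il1bKO, and 72.9, 86.4 and 92.3 CPM in Il1r1KO. Every knockout library was below every VF library. The log2 difference from VF was -0.54 for Il1bKO (SE 0.20, 95% interval -0.95 to -0.12, unadjusted p = 0.0132) and -0.35 for Il1r1KO (SE 0.20, interval -0.76 to 0.06, unadjusted p = 0.0925). Neither passed in edgeR (adjusted p = 0.222 and 0.483). Jak2 was the only one of the 9 whose groups did not overlap in either of these comparisons, while 6.14% and 6.76% of all tested genes were likewise separated downwards. Both comparisons use the same VF libraries. The difference between 4 and 2 weeks in the Il1bKO effect on Jak2 was log2 -0.59 (unadjusted p = 0.0355, adjusted p = 0.561, edgeR).

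Jak1 (ENSMUSG00000028530, chr4:101152367-101265282, minus strand) gave 563, 518, 574 and 517 CPM in WT and 498, 473, 541 and 503 CPM in VF at 2 weeks. The 4 Il1r1KO libraries of that time, 434, 444, 406 and 438 CPM, were below all WT and all VF libraries. Il1bKO gave 421, 556, 495 and 552 CPM and overlapped both. Il1r1KO differed from WT by log2 -0.34 (unadjusted p = 0.00965, adjusted p = 0.661, edgeR) and from VF by -0.22 (adjusted p = 1), so neither passed. Of all tested genes, 2.28% and 2.25% were separated downwards in these comparisons. The HSC marker sum at 2 weeks was 1899 to 2015 CPM in Il1r1KO, 2004 to 2443 in VF and 2103 to 3104 in WT, and its part in the Jak1 values was not tested.

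Over both times Jak1 in Il1r1KO was log2 -0.29 from VF (SE 0.09, interval -0.48 to -0.10), a fold of 0.816, which did not pass (unadjusted p = 0.00385, adjusted p = 0.225, edgeR). VF replicate 6 at 4 weeks bears on that call: it gave 306 CPM against 478 and 465 in its replicates. Without it Jak1 was at log2 -0.37 with adjusted p = 0.0341, and without all 3 libraries that stand apart at -0.30 with adjusted p = 0.0217. In Il1bKO Jak1 was log2 -0.13 from VF (SE 0.09, adjusted p = 0.687). The difference between the knockouts was -0.16 (SE 0.09, adjusted p = 0.436), so it is not shown to belong to one of them.

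Tyk2, the partner kinase of the type I interferon and IL-12 receptors (ENSMUSG00000032175, chr9:21104068-21131243), gave 61.9, 47.0, 63.6 and 41.7 CPM in WT. In VF at 2 weeks it gave 79.0, 63.1, 81.7 and 79.1 CPM, overlapping WT at 1 library. The log2 difference was 0.49 (SE 0.27, interval -0.06 to 1.05, adjusted p = 1, edgeR). VF libraries of 4 weeks were at 43.1, 37.6 and 38.9 CPM, below all 4 of 2 weeks, by log2 -0.88 (SE 0.29, unadjusted p = 0.00657, adjusted p = 0.460). The knockouts of 4 weeks spread from 29.7 to 80.5 CPM and overlapped their own 2-week groups.

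Jak3, which pairs with JAK1 on γc cytokine receptors (ENSMUSG00000031805, chr8:71676296-71690575), ranged from 49.5 CPM in Il1r1KO replicate 5 at 4 weeks to 264 CPM in Il1r1KO replicate 2 at 2 weeks. Group means ran from 115 CPM (SD 19.3, VF at 4 weeks) to 178 (SD 11, Il1bKO at 2 weeks). Its log2 differences were 0.01 for VF against WT, 0.24 for Il1bKO against VF and 0.11 for Il1r1KO against VF (SE 0.19 to 0.25), and none passed.

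Stat2, the interferon-responsive factor that works with IRF9 (ENSMUSG00000040033, chr10:128270559-128292849), gave 42.4, 132 and 56.6 CPM in VF at 4 weeks. The highest value belonged to VF replicate 6. Il1r1KO of 4 weeks gave 20.3, 49.6 and 57.3 CPM, and Il1bKO 91.0, 45.2 and 50.4 CPM. Over both times Il1r1KO was log2 -0.62 from VF (SE 0.24, interval -1.11 to -0.13, unadjusted p = 0.0158), which did not pass (adjusted p = 0.329, edgeR). That value moved to -0.28 without VF replicate 6 and to -0.12 without all 3 libraries that stand apart. At 2 weeks the group means were 55.7 CPM for WT (SD 9.66), 71.7 for VF (SD 7.75), 72.5 for Il1bKO (SD 18) and 55.7 for Il1r1KO (SD 10.9).

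Stat3, the IL-6 family and G-CSF factor (ENSMUSG00000004040, chr11:100885098-100939540, minus strand), had group means of 322 to 346 CPM at 2 weeks. At 4 weeks it gave 370, 322 and 274 CPM in VF, 284, 301 and 278 in Il1bKO and 182, 209 and 322 in Il1r1KO. The lower pair of Il1r1KO libraries lies below all others and the third overlaps VF. The difference of Il1r1KO from VF at 4 weeks was log2 -0.43 (SE 0.16, unadjusted p = 0.0138, adjusted p = 0.273, edgeR).

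Stat5a (ENSMUSG00000004043, chr11:100859351-100885169) and Stat5b (ENSMUSG00000020919, chr11:100780731-100850724, minus strand) encode the factors that carry much of the JAK2 signal in blood cells, and they were the steadiest of the 9. WT gave 214, 237, 221 and 203 CPM of Stat5a and VF at 2 weeks 205, 235, 221 and 195, with overlapping ranges. The Stat5a difference of VF from WT was log2 -0.04 with an interval of -0.28 to 0.20. For Stat5b the WT libraries lay at 166 to 178 CPM and the VF libraries at 176 to 184, a log2 difference of 0.06 with an interval of -0.17 to 0.30. As folds of VF over WT, the upper ends of these intervals were 1.15 for Stat5a and 1.23 for Stat5b. Against VF over both times, Stat5a and Stat5b were at log2 0.10 and 0.00 in Il1bKO and at -0.07 and -0.09 in Il1r1KO (SE 0.09 each, adjusted p = 0.768 or more, edgeR). The highest Stat5a value, 288 CPM, came from Il1bKO replicate 5 at 4 weeks, whose replicates were at 214 and 195.

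Stat6, the IL-4 and IL-13 factor (ENSMUSG00000002147, chr10:127642986-127660957), was at 141 to 154 CPM in WT and 126 to 146 in VF at 2 weeks. Its differences were log2 -0.12 for VF against WT, 0.17 for Il1bKO against VF and 0.07 for Il1r1KO against VF (SE 0.10 to 0.13), and none passed.

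Counted together, the genotype comparisons called 0 of the 9 genes. In VF against WT 0 of 9 were called by edgeR, 0 had an unadjusted p under 0.05 and DESeq2 called 0, with 0.00734% of all tested genes called by edgeR (1 gene) and 2.27% under 0.05 unadjusted. The median log2 difference of the 9 was -0.04, beside 0.00 for all genes. Without WT replicates 3 and 4, which are low in GFP, 0 of 9 were called as well (edgeR, 0 with an unadjusted p under 0.05), and the value that moved most was that of Jak2, from log2 -0.19 to -0.11. In Il1bKO against VF over both times the counts were again 0, 0 and 0, against 0.139% of all genes called and 9.38% under 0.05 unadjusted, and the median was 0.00 beside -0.01. In Il1r1KO against VF edgeR and DESeq2 each called 0 and 2 had an unadjusted p under 0.05 (Jak1 and Stat2), where 0.169% of all genes were called and 11.4% had such a p. The median of the 9 was -0.09 beside 0.00. Il1r1KO against Il1bKO gave 0 by edgeR, 0 unadjusted and 0 by DESeq2, with 0.176% of all genes called and 14.1% under 0.05 unadjusted.

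Within each time edgeR and DESeq2 also called 0 of 9 between genotypes. Over all genes DESeq2 called 8 (VF against WT at 2 weeks) to 375 (Il1bKO against VF at 4 weeks) in the genotype comparisons. Unadjusted p fell under 0.05 for 0 genes in Il1bKO against VF, Il1r1KO against VF and Il1bKO against WT at 2 weeks, where edgeR called 0.00734%, 0.0514% and 0.044% of all genes and 1.36%, 3.15% and 3.1% had such a p. It did so for 1 gene (Jak1) in Il1r1KO against WT, beside 5.98% of all genes, with 0.0587% called. At 4 weeks it did so for 1 gene (Jak2) in Il1bKO against VF, beside 14.7% of all genes with 0.125% called, and for 3 (Jak1, Stat2 and Stat3) in Il1r1KO against VF, beside 12.7% with 0.147% called. Time dependence of the Il1bKO and Il1r1KO effects was called for 0 of 9 by edgeR and DESeq2, with 1 gene under 0.05 unadjusted in each (Jak2 and Stat3), where edgeR called 0.0147% and 0% of all genes and 8.28% and 5.32% had such a p. Jak1 at 4 weeks was log2 -0.36 from VF in Il1r1KO (adjusted p = 0.275), and without VF replicate 6 it was at -0.53 with adjusted p = 0.0494.

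**Figure D3:**
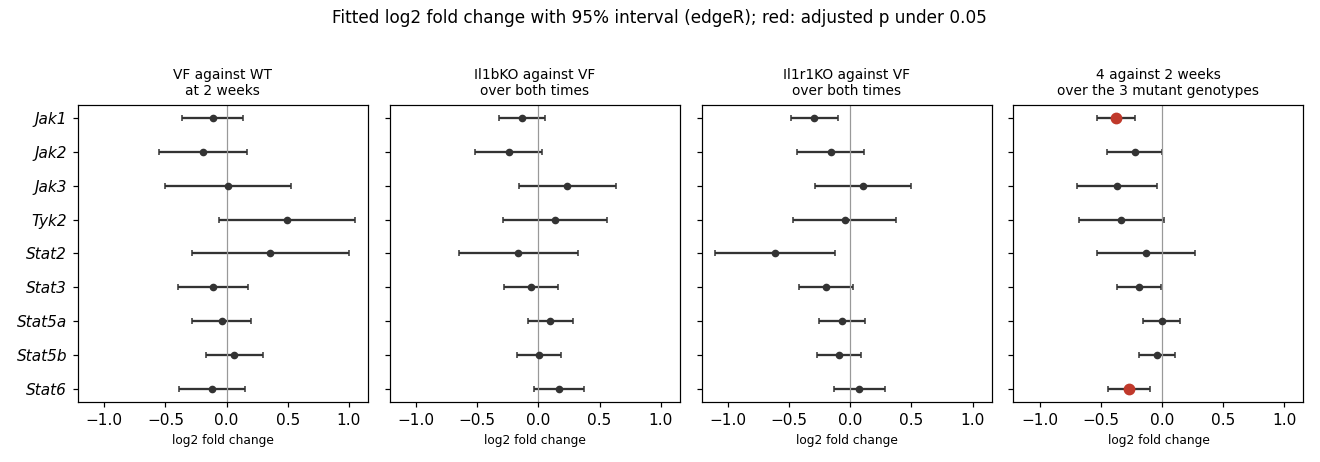
Fitted log2 fold change of the 9 genes with 95% intervals in 4 comparisons (edgeR, 25 libraries in 1 fit), red where the adjusted p is under 0.05. No gene is red in the 3 genotype comparisons, and Jak1 at -0.37 and Stat6 at -0.27 are red in the comparison of 4 with 2 weeks.

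Between the times, Jak1 and Stat6 fell in the mutant genotypes. The 2 times were processed as 2 batches, so time and batch cannot be told apart. Over VF, Il1bKO and Il1r1KO together, Jak1 was lower at 4 weeks by log2 -0.37 (SE 0.07, interval -0.53 to -0.22), a fold of 0.772 (adjusted p = 0.00328, edgeR). Stat6 was lower by log2 -0.27 (SE 0.08, interval -0.44 to -0.10, adjusted p = 0.0296). All 9 fitted values were below 0, with a median of -0.22 beside -0.03 for all genes, from -0.37 for Jak1 and Jak3 to -0.00 for Stat5a. Only 2 of the 9 passed, both falling, while edgeR called 14.4% of all tested genes (5.82% fell and 8.53% rose). An unadjusted p under 0.05 was found for 5 of the 9 (28.9% of all genes), and DESeq2 called 2 (18% of all genes by DESeq2). The counts of members were not tested against these shares. The comparison of the times over these genotypes was added after single-genotype values were seen.

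The fitted Jak1 difference was below 0 in each genotype, by log2 -0.24 in VF (SE 0.13, adjusted p = 0.648), -0.51 in Il1bKO (SE 0.13, adjusted p = 0.0599) and -0.38 in Il1r1KO (SE 0.13, adjusted p = 0.102, edgeR), with none passing alone. Il1bKO libraries of 4 weeks (306, 372 and 375 CPM) were all below those of 2 weeks, and so were those of Il1r1KO (240, 360 and 361 CPM). In VF 1 library at 478 CPM overlapped the 2-week range of 473 to 541, another was just below it at 465, and replicate 6 was at 306. The VF interval, log2 -0.50 to 0.03, included 0. Without the 3 libraries that stand apart, Jak1 was at log2 -0.24 (adjusted p = 0.00964) and Stat6 at -0.22 (adjusted p = 0.0216). Stat2 was then called too, at log2 -0.38 (adjusted p = 0.0481, edgeR) against -0.13 (adjusted p = 0.703) with all libraries, and it was not called with any single library left out. Stat6 lost its call when any 1 of VF replicate 3 of 2 weeks, VF replicate 6, Il1bKO replicate 6, Il1bKO replicate 7 or Il1r1KO replicate 5 was left out, with adjusted p of 0.0504 to 0.0721. Markers of HSCs and of other cell types moved between the times as well, and their part in the result was not tested. In the mutant libraries the 7 HSC markers summed to 1210 to 1930 CPM at 4 weeks against 1900 to 2530 at 2 weeks, with 2 of 7 called down (Kit and Mecom, edgeR), and Cd48 was called up (log2 1.81). The 1 lymphoid marker in the table, Nkg7, a gene of cytotoxic lymphocytes, was called up (log2 1.23, adjusted p = 0.00337, edgeR), at 18.7 to 118 CPM against 18.5 to 50.3. Of 5 megakaryocyte markers 1 was called up (Pf4, log2 1.69, adjusted p = 0.0124, edgeR). As a list they were mixed, with 3 above 0, 2 below 0 and a median of log2 0.19. Their sum was 323 to 2140 CPM against 305 to 1190.
Of 8 neutrophil and monocyte markers 7 were below 0 with a median of log2 -1.25, 0 called, and their sum was 323 to 591 CPM against 406 to 689. Of 5 erythroid markers 4 were above 0 with a median of log2 0.68, 0 called, and their sum was 83.6 to 413 CPM against 63.2 to 140. The mast cell and basophil list had 0 called among 3 tested genes, with a sum of 0.752 to 70.9 CPM at 4 weeks. Of the macrophage and dendritic list only Siglech was in the table, at 0 to 0.0376 CPM at 4 weeks. Of the stroma and endothelium list only Pecam1 was, at 50.9 to 111 CPM, so the list holds no measure of the other genes listed. Neither Siglech nor Pecam1 was called.

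Genotype by genotype, VF at 4 against 2 weeks had 0 genes called by edgeR or DESeq2 (0.022% of all genes by edgeR) and 1 with an unadjusted p under 0.05 (Tyk2), beside 8.48% of all genes. Jak3 and Tyk2 were separated downwards, as were 8.64% of all genes. Il1bKO had 0 called by edgeR (0.748% of all genes), 2 with an unadjusted p under 0.05 (Jak1 and Jak2, beside 19.1% of all genes) and 1 called by DESeq2 (Jak1, beside 4.46% of all genes by DESeq2). There Jak1, Jak2 and Stat3 were separated downwards, beside 8.86% of all genes. Il1r1KO had 0 called by edgeR (2.46% of all genes), 3 with an unadjusted p under 0.05 (Jak1, Stat3 and Stat6, beside 19.3% of all genes) and 2 called by DESeq2 (Jak1 and Stat6, beside 6.82% of all genes by DESeq2). Jak1 and Stat6 were separated downwards there, beside 9.02% of all genes. Stat6 in Il1r1KO went from 154, 179, 144 and 147 CPM at 2 weeks to 82.1, 120 and 126 CPM at 4 weeks, log2 -0.46 (SE 0.14, adjusted p = 0.074, edgeR). Its differences were smaller in VF (log2 -0.21, SE 0.14, adjusted p = 0.738) and Il1bKO (-0.14, SE 0.14, adjusted p = 0.602, edgeR). In both of these genotypes the libraries of the 2 times overlapped for Stat6.

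Human JAK2 reads were then set against mouse Jak2 reads within each library, which needs no scaling for depth. Mutant libraries held more human than mouse JAK2 reads in every case, from 121 human reads (both rows) per 100 mouse reads upwards. The 4 WT libraries together had 40 human reads beside 12994 mouse Jak2 reads, 0.308 per 100, with 0.617 in the highest. That is the background of human reads measured the same way. The human rows are coding exons only and their lengths are not used here, so the ratio compares libraries and is not a ratio of transcripts. Whether some human reads were counted to mouse Jak2 was not tested.

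VF libraries held 2.07, 1.48, 1.51 and 1.40 human reads per mouse Jak2 read at 2 weeks and 1.64, 1.53 and 1.36 at 4 weeks. Il1r1KO libraries held 3.10, 3.25, 2.54 and 2.86 at 2 weeks and 3.05, 2.79 and 2.80 at 4 weeks, all above every VF library. Il1bKO libraries held 1.75, 1.91, 1.96 and 1.21, then 2.87, 1.503 and 2.02, and overlapped both. The means of the 7 libraries were 1.57 for VF (SD 0.237), 1.89 for Il1bKO (SD 0.520) and 2.91 for Il1r1KO (SD 0.240).

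Il1r1KO was 1.87 times VF (log2 0.90, exact two-sided permutation of genotype within time, p = 0.00143, the smallest 1400 permutations can give, adjusted p = 0.00857 over 6 tests). The difference was log2 0.87 at 2 weeks and 0.93 at 4 weeks. At 2 weeks human JAK2 was at 306 CPM (SD 14.8) in Il1r1KO against 165 (SD 7.38) in VF, n = 4 each, with mouse Jak2 at 105 (SD 16.8) against 104 (SD 15.3) CPM. At 4 weeks human JAK2 was at 241 CPM (SD 17.9) against 163 (SD 4.95), n = 3 each, and mouse Jak2 at 83.9 (SD 9.95) against 108 (SD 7.67) CPM, so both terms of the ratio differed in mean there. Against Il1bKO it was 1.56 times (log2 0.64, exact permutation p = 0.00429, adjusted p = 0.00857). Il1bKO was 1.20 times VF (log2 0.26, exact permutation p = 0.181, adjusted p = 0.218), which did not pass. Of all JAK2 reads, human reads made up 60.9% for VF (SD 3.24), 64.5% for Il1bKO (SD 6.05) and 74.4% for Il1r1KO (SD 1.59), with n = 7 per genotype. The pEGFP row moved the same way between these genotypes, at 465 to 514 CPM in VF and 874 to 1357 CPM in Il1r1KO, with 382 to 532 CPM in Il1bKO. The CreERT2 row, the recombinase that switches on the construct, was at 185 to 384 CPM in VF, 320 to 608 in Il1r1KO and 447 to 821 in Il1bKO, so Il1bKO lay above every VF library and Il1r1KO overlapped VF. The part of either row, or of cells kept by the recipients, in the ratio was not tested. Loss of the receptor and the higher human JAK2 level cannot be told apart in comparisons of Il1r1KO with VF.

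The share of reads from the construct's second row also differed by genotype. Per read of exons 3 to 12 there were 0.300, 0.455, 0.539 and 0.339 reads of exons 13 to 25 in VF at 2 weeks and 0.468, 0.562 and 0.379 at 4 weeks. In Il1bKO there were 0.676, 0.577, 0.524 and 0.504, then 1.15, 0.684 and 0.633, the highest in replicate 5, which stands apart. In Il1r1KO there were 0.525, 0.582, 0.492 and 0.606, then 0.728, 0.686 and 0.460. With the times pooled, VF and each knockout overlapped, but at 4 weeks alone every Il1bKO library was above every VF library. VF was lowest in mean at each time.

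Il1bKO was 1.56 times VF (log2 0.64, exact permutation p = 0.00429, adjusted p = 0.00857), and without Il1bKO replicate 5 of 4 weeks log2 0.51 (exact permutation, adjusted p = 0.0229). Il1r1KO was 1.35 times VF (log2 0.43, exact permutation p = 0.0271, adjusted p = 0.0407). That call was lost without any 1 of 8 libraries (VF replicates 1, 4, 5 and 7 and Il1r1KO replicates 2, 4, 5 and 6), with log2 0.36 to 0.44 and exact permutation adjusted p of 0.06 to 0.0857. The knockouts differed by log2 -0.21 (exact permutation p = 0.347, adjusted p = 0.347). Both differences from VF share the VF libraries. All mouse and human JAK2 reads together came to 119 CPM (SD 30.6) in WT, n = 4, against 269 (SD 14.7) in VF at 2 weeks, n = 4, with ranges of 77.3 to 150 and 255 to 283.

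**Figure D4:**
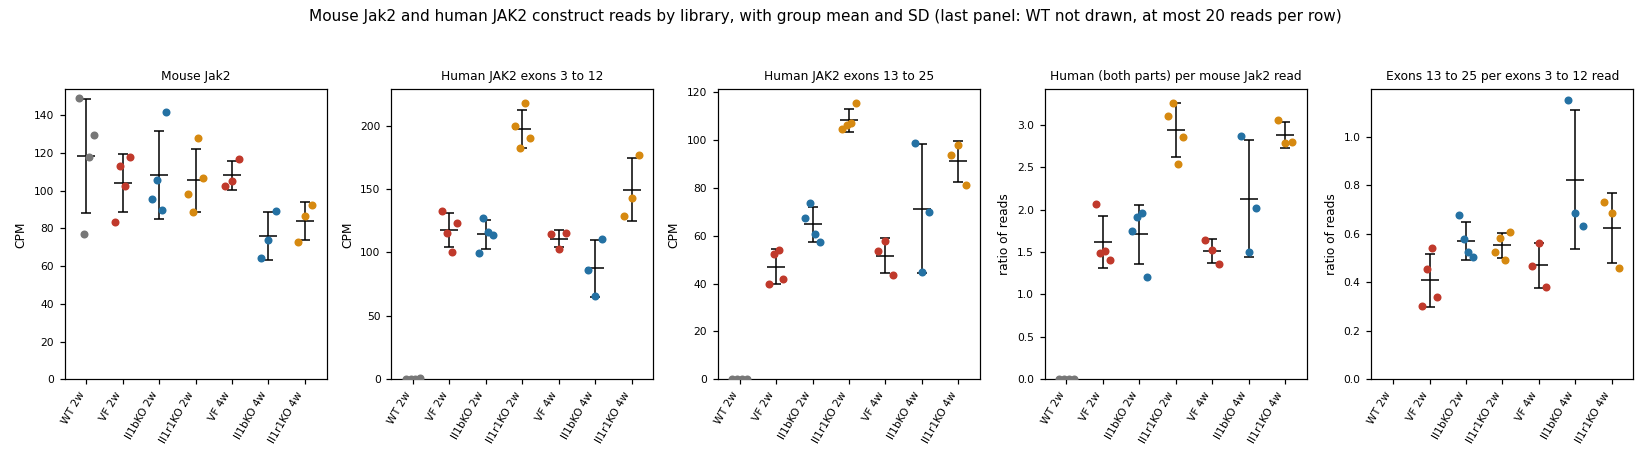
Mouse Jak2 and the human JAK2 rows in CPM and the read ratios within libraries (y axes, linear from 0), with points for libraries and bars for group mean and SD, n = 4 at 2 weeks and 3 at 4 weeks. Il1r1KO holds 2.54 to 3.25 human reads per mouse Jak2 read and VF 1.36 to 2.07, while WT has 40 human reads in all.

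Genes around the 9 in the pathway were counted from lists of general knowledge. In VF against WT, Il1bKO against VF and Il1r1KO against VF over both times, edgeR called 0 of 20 negative regulators, 0 of 25 receptor chains, 0 of 9 STAT partners and kinase chaperones and 0 of 14 STAT targets. Unadjusted p was under 0.05 for 8, 7 and 13 of these 68 genes in that order, where 2.27%, 9.38% and 11.4% of all genes had such a p. DESeq2 called 0, 2 (Pim1 and Osmr, beside 0.735% of all genes by DESeq2) and 4 (Pim1, Socs2, Cdkn1a and Osmr, beside 1.09%). Fitted values of Osmr between the times varied widely with the setting, as given below.

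The lowest unadjusted p in VF against WT belonged to the cyclin gene Ccnd2 (log2 -0.39, SE 0.13) and the receptor chain Il15ra (-0.37, SE 0.13), and neither passed (adjusted p = 1, edgeR). In Il1bKO against VF they belonged to the STAT5 target kinase Pim1 (-0.69, SE 0.18, adjusted p = 0.195, edgeR) and the inhibitor Socs1 (-0.59, SE 0.18, adjusted p = 0.328). In Il1r1KO against VF they belonged to Pim1 (-0.81, SE 0.18, adjusted p = 0.0678, edgeR) and the inhibitor Socs2 (0.69, SE 0.19, adjusted p = 0.153).

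At 4 weeks alone Pim1 was the one gene of these lists called between genotypes. It fell from 293 CPM (SD 110, n = 3) in VF to 102 (SD 19.7, n = 3) in Il1r1KO, log2 -1.50 (SE 0.28, adjusted p = 0.0316, edgeR). The call was lost without any 1 of VF replicates 5 and 7 and Il1r1KO replicates 5, 6 and 7 of 4 weeks, with adjusted p of 0.0662 to 0.148. None of the 4 lists held another gene that edgeR called in a genotype comparison. Against VF at 4 weeks DESeq2 called 3 in Il1r1KO (Pim1, Socs1 and Osmr, beside 1.7% of all genes by DESeq2). In Il1bKO it called 7 (Socs1, Pim1, Il15ra, Ptpn1, Lifr, Osmr and Csf2rb2), beside 2.76%. It also called Ccnd3 in Il1r1KO against Il1bKO over both times, and at 2 weeks Ccnd2 in Il1bKO and Socs2 in Il1r1KO against WT. Over all genes it called 166, 24 and 46 in these comparisons.

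Between the times, over the 3 mutant genotypes, 11 of the 68 genes were called by edgeR, 5 up and 6 down, beside 14.4% of all genes, and 16 by DESeq2, beside its 18% of all genes. The survival gene Mcl1 fell by 0.48 on the log2 scale (SE 0.06, adjusted p = 1.6e-04, edgeR), and the STAT5 feedback inhibitor Cish fell by 0.89 (SE 0.21, adjusted p = 0.00858). The type I interferon receptor chain Ifnar1 fell by 0.46 (SE 0.12, adjusted p = 0.0115). The shared receptor chain Csf2rb rose by 1.10 (SE 0.28, adjusted p = 0.0121), the phosphatase gene Ptpn2 by 0.28 (SE 0.07, adjusted p = 0.0154) and the cyclin gene Ccnd3 by 0.27 (SE 0.06, adjusted p = 0.00547, edgeR). Without the 3 libraries that stand apart Cish and Ptpn2 did not pass (adjusted p = 0.0605 and 0.0782).
The other 5, each with an adjusted p of 0.0295 or more (edgeR), were Ptprc, Stam and Osmr below 0 and Hsp90ab1 and Id1 above it, and each lost its call without at least 1 single library. Osmr was fitted at log2 -5.89, with -15.2 to -5.02 over the alternatives, and was called in only 13 of 31. In Il1r1KO alone Mcl1 (log2 -0.56, adjusted p = 0.0191) and Ccnd3 (0.38, adjusted p = 0.048) were called in edgeR. Mcl1 lost that call without Il1r1KO replicate 4 of 2 weeks or replicate 5 of 4 weeks (adjusted p = 0.0623 and 0.154), and Ccnd3 was called in only 10 of 31 alternatives.

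Across the 24 libraries other than Il1bKO replicate 5 of 4 weeks, the genes whose log2 CPM was most like each member were found among 10406 candidates, as a description of libraries that share batch and group. VF replicate 6 and Il1r1KO replicate 5 of 4 weeks, which also stand apart, were kept in. Their part in the r values was not tested. For Jak1 they were Ppp1r15a (r = 0.91) and Slc18a2 (0.91), for Jak3 Dgkz (0.93), for Tyk2 Csf3r (0.83), for Stat6 Myo1f (0.87) and for Stat2 the interferon genes Parp9 (0.85) and Irf7 (0.83). Jak2 reached r = 0.77 with Serinc1 and Stat5b r = 0.69 with Zbtb2, the weakest best match of the 9. Among the 9 themselves the closest pair was Jak1 with Stat6 (r = 0.70), Stat5a with Stat5b reached 0.37, and Jak2 with Tyk2 was lowest at -0.11. In the RefSeq windows of 300 bases around each start site (GRCm38.p6), the STAT motif TTCNNNGAA, which reads the same on both strands, was in 0 of 11 windows of the 9 genes and in 8.3% of all 32851 windows.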

How the data were processed

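Raw read counts per gene were used as the authors deposited them, with no normalization, for 25 libraries over 13641 mouse genes and 4 construct rows. Per the labels, PicoPure was used to extract RNA, and polyA RNA went into unstranded SMART-Seq v4 libraries, with all samples handled in 2 batches that match the 2 times. STAR 2.7.10a, featureCounts (version not stated), FastQC 0.11.5 and R 4.2.2 are listed with the build mm10, per the submitters' processing notes, with no settings. Reads were not realigned. Symbols, positions, exon lengths and the printed transcript sequences came from GENCODE vM21 (mm10), and promoter windows from RefSeq.

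From the counts, CPM was computed per total of mouse gene counts and RPKM by the union length of exons. The depth of 21990959 to 40178173 counts gave 493 reads or more for each of the 9 genes in each library. Genes were tested with edgeR 4.0.16 in R 4.3.3 (TMM factors, filterByExpr, robust quasi-likelihood, 7 groups in 1 fit, 13630 genes, Benjamini-Hochberg, threshold 0.05). Constructs stayed out of that fit. Differences over both times are means of the 2 within-time differences, and intervals of 95% come from the fit. Log2 read ratios (0.5 added to each count) were tested by exact two-sided permutation of genotype within time, adjusted over 6 tests. Alternatives were RLE factors, DESeq2 1.42.0, all genes unfiltered or only those at CPM 5 in 3 libraries, the replicate number as a block, each library left out and the 3 libraries that stand apart left out together. The comparison of times over 3 genotypes, a fit of the 2-week libraries alone and a fit without the 2 WT libraries low in GFP were chosen after seeing the data. The fit was tested on simulated data. All 9 genes, both human JAK2 rows, called list genes and, where none was called, those of lowest p are named. Some genes of the pathway are not reported here. The genes, lists and tests were chosen with earlier results of these data known. Labels do not say whether replicates are separate mice, so p-values measure the spread between these libraries.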

Additional observations from a re-analysis of the deposited data

Results flagged for a closer look

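Among 42 groups of 4 libraries looked at (the 9 genes and the human JAK2 measures at 2 weeks), 3 held a library far from the other 3, where chance alone sets apart about 1 in 20. Jak3 in Il1r1KO at 2 weeks was at 264.1 CPM in replicate 2 and at 126 to 147 in the others. Tyk2 in VF at 2 weeks was at 63.1 CPM in replicate 2 and at 79.0 to 81.7 in the others. The ratio of human JAK2 to mouse Jak2 reads in VF at 2 weeks was 2.067 in replicate 1 and 1.40 to 1.51 in the others.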

How the results depend on the processing

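Counts of called members were scored as unchanged in 424 of 442 alternatives, a score that also took 3 called in place of 2 as unchanged. Gene differences kept call and direction in 2074 of 2195 and JAK2 ratios in 88 of 96 (a change of sign was counted where the gene was called or its value moved by at least its SE). Leaving out single libraries gave 0 to 1 called members in Il1r1KO against VF over both times and at 4 weeks (Jak1, without VF replicate 6), 0 to 1 in Il1bKO and 0 to 2 in Il1r1KO between the times, and 1 to 3 over the 3 mutant genotypes. DESeq2 called 1 and 2 in the knockouts between the times, beside 4.46% and 6.82% of all genes by DESeq2. For the edgeR fits with libraries left out, the share of all genes called is not given here. Their counts of called members are therefore not set against a background. Without the 3 libraries that stand apart, 1 was called in Il1r1KO against VF and 1 in Il1bKO between the times (both Jak1), and over the 3 mutant genotypes 3 were called in place of 2, Stat2 being added (log2 -0.38, adjusted p = 0.0481, edgeR). Signs changed for Stat2 in Il1bKO against VF (log2 -0.36 to 0.17 with single libraries left out, above 0 without VF replicate 6), for Jak3 between the knockouts (-0.27 to 0.060, above 0 without Il1r1KO replicate 5 of 4 weeks), and, without the 3 libraries, for Stat5a in Il1r1KO against VF (0.033) and between the knockouts (0.0093) and for Stat6 between the knockouts (0.060). None of these genes was called there. The cause was not tested. The second to first row ratio of Il1r1KO against VF ranged from log2 0.36 to 0.54 with single libraries left out (exact permutation, adjusted p = 0.0129 to 0.0857). Libraries of the same number did not deviate together (mean r -0.02, 33 pairs, against 0.01 for others), so the numbers were not used as pairs. With the replicate block, Jak1 between the times was log2 -0.38 (adjusted p = 0.00799, edgeR), the counts of called members did not change, and Pim1 in Il1r1KO against VF at 4 weeks was at adjusted p = 0.081. Each of the 9 genes had 493 reads or more in each library, and the 3 to 4 libraries of a group left intervals of about log2 0.5 either way for Jak3 and Tyk2.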
